A study of Callithrix jacchus with 71 samples.

Results

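The genes of caveolae CAV1, CAV2, CAVIN1, CAVIN2 and CAVIN3 were followed in single cells of the common marmoset across a reprogramming course from fibroblasts to iPSCs. They were chosen by their normalized levels in these same cells, as genes lost in induced neural stem cell-like cells (iNSLCs) against pluripotent cells and the fibroblast, so the levels are given as a description with no test. All 5 members had a row among the 23561 named rows of the deposited table. The cells were 65 E01F A2 iNSLCs, 1 E01F A-2-2 iPSC, 4 No.40 ESCs and 1 E01F fibroblast. E01F is a line of skin fibroblasts from a marmoset embryo. The iNSLCs came from it by electroporation of episomal vectors for the human factors LIN28, L-MYC, KLF4, SOX2 and OCT4, a dominant-negative mouse p53 and EGFP, followed by culture in a medium made for naive-state cells, and they were taken at an early passage at which they still carried the vectors. The iPSC line was derived from such iNSLCs in ESC medium and had lost the vectors, and the ESCs are an embryo-derived line that was never reprogrammed. The iPSC and the ESCs are grouped as PSC cells (5 cells). The labels give 1 source for each group, so that its cells count as a single culture and the groups were not tested against each other.

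Caveolae are small flask-shaped pits of the plasma membrane, rich in cholesterol, that flatten when the membrane is stretched. Caveolins (CAV1 and CAV2, and CAV3 in muscle) sit in the inner leaflet of the membrane, and cavins form a coat on its cytoplasmic side. In mammals both CAV1 and CAVIN1 are needed to form caveolae outside muscle, and caveolae are abundant in fibroblasts, adipocytes, endothelium and muscle and scarce in neurons. CAV2 is a partner of CAV1, CAVIN2 helps to bend the membrane and CAVIN3 acts in the trafficking of caveolae.

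Cells were read by RamDA-seq, which copies the RNA of 1 cell along the whole transcript. The deposited values, normalized counts, are reads divided by 1 factor per cell but not by gene length, so levels are compared between cells and not between genes. The iNSLCs had 82268 to 695241 reads on genes (median 268128), the iPSC 302617, the ESCs 134328 to 1003718 and the fibroblast 1294430. A single read was worth 0.441 to 2.84 normalized counts in iNSLCs, 1.07 in the iPSC, 0.405 to 2.55 in ESCs and 0.405 in the fibroblast. A ratio is the log2 of the mean over iNSLCs over the mean of the other group, after a pseudocount of 1 was added to each mean. Confidence intervals (CI, 95%) are exact Poisson intervals for reads and exact Clopper-Pearson intervals for shares of cells, and cover counting error only. The labels were checked against known markers. PAX6, a transcription factor of neural stem cells, had reads in 63 of 65 iNSLCs and in no PSC cell or fibroblast. Of 6 neural stem cell markers, 5 were at least 4-fold higher in iNSLCs than in PSC cells (5.75% of the named genes described next). Against the fibroblast 4 were (11.1%). NES had reads in all 5 PSC cells, with a ratio of 0.94, and MSI1 in 4 of them. Against the fibroblast the ratio was -1.37 for VIM and 0.47 for CDH2. All 6 pluripotency markers examined were at least 4-fold lower in iNSLCs than in PSC cells, as were 8.24% of the 11882 named genes with a mean of at least 1 over all cells. The collagen gene COL1A1 averaged 1.52 normalized counts in iNSLCs and 134 in PSC cells and was at 9769 in the fibroblast. Another collagen gene, COL1A2, was at 11345 in the fibroblast but also had reads in 45 of 65 iNSLCs, at a mean of 104 and up to 1069, where PSC cells had at most 1.62.

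The 5 genes were not lost together, and the name of a loss fitted only some of them. CAVIN1 was close to absent in iNSLCs and present in every other cell. CAVIN3 was lower in iNSLCs than in PSC cells and the fibroblast but was still found in most iNSLCs. CAV1 and CAV2 were lower in iNSLCs than in the fibroblast only, and CAV2 was found in many iNSLCs and in no PSC cell. CAVIN2 had reads in the fibroblast and in a single iNSLC. At least 4-fold lower means in iNSLCs were thus found for 2 of 5 members against PSC cells (8.24% of the 11882 named genes with a mean of at least 1 over all cells), for 5 of 5 against the fibroblast (9.19% of these genes) and for 2 of 5 against both (1.79%). With a pseudocount of 10 the calls of CAVIN3 against PSC cells (-1.91) and of CAVIN2 against the fibroblast (-1.02) were lost, which left 1 of 5 against PSC cells, 4 of 5 against the fibroblast and 1 of 5 against both. CAV2 alone of the members had a mean at least 4-fold higher in iNSLCs than in PSC cells (5.75% of these genes). Of the 5 members 4 reached the mean of 1, and CAVIN2 did not. The median ratio of the 5 members was 0.15 against PSC cells and -4.24 against the fibroblast, where all these genes had -0.18 and 0. Since these contrasts chose the members, the counts describe them and support nothing further.

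**Figure D1:**
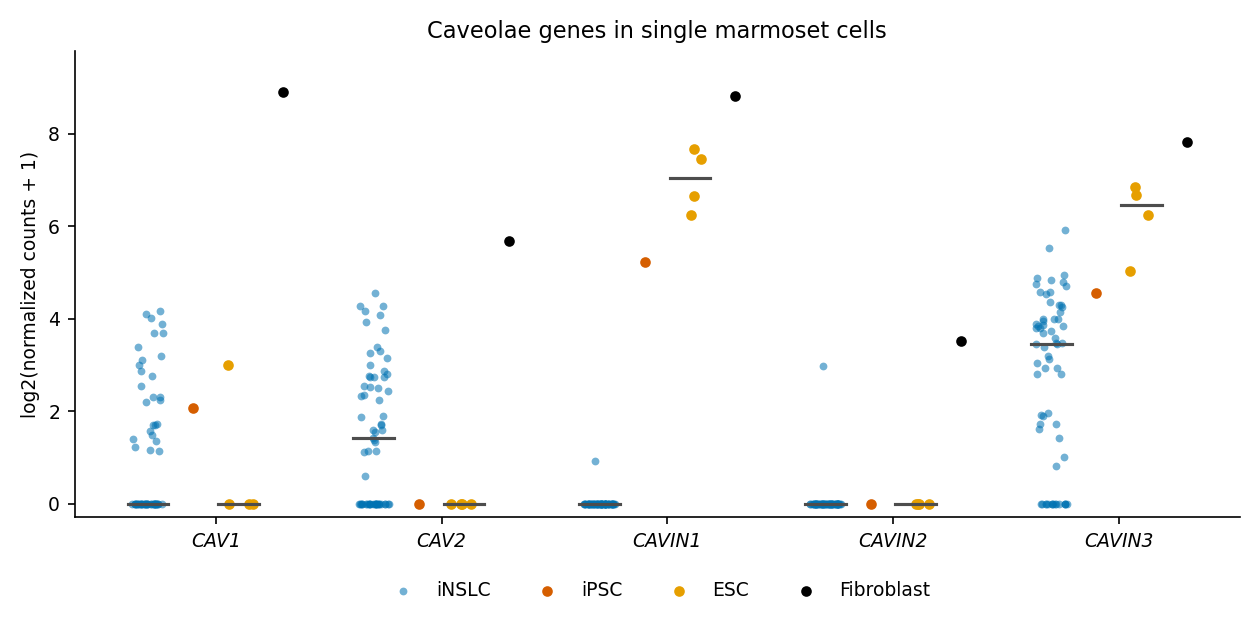
Log2 of normalized counts plus 1 (y axis) of the 5 caveolae genes (x axis). Points are the cells of each group (65 iNSLCs, 1 iPSC, 4 ESCs and 1 fibroblast), with a bar at the median of iNSLCs and of ESCs. CAVIN1 separates the iNSLCs from all other cells, whereas CAV1 and CAV2 separate the fibroblast from the rest.

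CAVIN1, formerly PTRF, encodes the coat protein without which caveolae do not form. Its reads in the 65 iNSLCs amounted to 1 (CI 0.0253 to 5.57), in cell 35, at 0.900 normalized counts. It was at 36.3 normalized counts in the iPSC, at 75.3, 174, 204 and 99.1 in ESC cells 10, 11, 12 and 14, and at 450 in the fibroblast. Every iNSLC was therefore below every PSC cell, which held for this 1 member of 5 and for 1.25% of the named genes, and also below the fibroblast, and 0.261% of the named genes were below both in this way. Among the cells other than iNSLCs, the iPSC was lowest for CAVIN1, the ESCs came next and the fibroblast was highest. The iPSC and the fibroblast are 1 cell each. At the level of the iPSC the 65 iNSLCs, at their own depths, would have held 2241 reads of CAVIN1. The mean was 0.0139 normalized counts in iNSLCs and 118 in PSC cells, so that it was 8496-fold lower in iNSLCs, with a range of 1525-fold to 335587-fold from the counting interval of the single iNSLC read. The ratio was -6.87 against PSC cells and -8.80 against the fibroblast. The share of iNSLCs with a read was 1.54% (CI 0.0389% to 8.28%).

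Named genes on either side of CAVIN1 were read in the same cells. In the RefSeq annotation of the marmoset assembly calJac240_pri, STAT3, a transcription factor of cytokine signalling, lies next to it on one side. On the other side the next entry is a locus without a gene name, which was not read here. ATP6V0A1, a subunit of the vacuolar proton pump, was taken as the named neighbour on that side. STAT3 had reads in 65 of 65 iNSLCs, at a mean of 82.0 ± 42.6 normalized counts (SD, n = 65 cells), and was at 33.1 in the iPSC, 37.2 to 55.6 in ESCs and 53.0 in the fibroblast. ATP6V0A1 had reads in 65 iNSLCs too, at 20.9 ± 15.5 (SD, n = 65 cells), and was at 8.55 in the iPSC, 17.5 to 55.1 in ESCs and 24.3 in the fibroblast. Neither neighbour shared the near absence of CAVIN1 reads.

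CAVIN3, formerly PRKCDBP, was the most widely found member in iNSLCs. It had reads in 50 of the 65, or 76.9% (CI 64.8% to 86.5%), from 0 to 59.4 normalized counts with a median of 10.0. It was at 22.4 in the iPSC, at 74.5, 115, 102 and 31.7 in ESC cells 10, 11, 12 and 14, and at 227 in the fibroblast. Here the groups overlapped: 10 iNSLCs reached the iPSC, 2 (cells 72 and 85) reached the lowest ESC and none reached the fibroblast. The mean was 11.1 ± 11.6 in iNSLCs (SD, n = 65 cells) and 69.0 ± 41.1 in PSC cells (SD, n = 5 cells), with a ratio of -2.54. The ratio was -0.96 against the iPSC, -2.76 against the ESCs and -4.24 against the fibroblast. Of the 5 PSC cells, the iPSC was lowest for both CAVIN1 and CAVIN3, and as a single cell it says nothing of the spread of its line.

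CAV1, the principal caveolin outside muscle, had reads in 27 of 65 iNSLCs, or 41.5% (CI 29.4% to 54.4%). Its values in iNSLCs ran from 0 to 16.9 normalized counts with a median of 0, and the 27 cells had a median of 3.98. In the iPSC it was at 3.21, from 3 reads (CI 0.619 to 8.77), and of the ESCs only cell 12 had reads, at 7.02, with none in cells 10, 11 and 14. In the fibroblast it was at 480 normalized counts, from 1186 reads. iNSLCs and PSC cells thus overlapped fully and only the fibroblast stood apart. The mean was 2.58 ± 4.44 in iNSLCs (SD, n = 65 cells) and 2.05 ± 3.11 in PSC cells (SD, n = 5 cells), a ratio of 0.23, and without ESC cell 12 the ratio was 0.99. At the iNSLC mean the 5 PSC cells would have held 17.6 reads, and they held 16. Against the fibroblast the ratio was -7.07, and the mean was 186-fold lower in iNSLCs (160 to 218 from the counting interval of the iNSLC reads).

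CAV2, which forms mixed oligomers with CAV1, was found in more iNSLCs than CAV1 was. It had reads in 39 of 65, or 60.0% (CI 47.1% to 72.0%), from 0 to 22.7 normalized counts with a median of 1.69. No PSC cell had a read, and the fibroblast was at 50.2. The mean of iNSLCs, 3.87 ± 5.39 (SD, n = 65 cells), exceeded that of PSC cells at least 5.97-fold, with 3 reads over the 5 cells (0.648 normalized counts) as the floor. The ratio was 2.28, and it was below 2, and the call of a 4-fold higher mean lost, with a pseudocount of 10 (0.47), with medians over cells (1.43) and in the iNSLCs numbered 57 or above (1.94). At the iNSLC mean the PSC cells would have held 26.5 reads. For the share of cells with a read, 0 of 5 cells allows up to 60.0% by the limit of 3 cells of the total and up to 52.2% by the exact Clopper-Pearson interval. Against the fibroblast the mean of iNSLCs was 13.0-fold lower (11.5 to 14.7 from the same kind of interval), with a ratio of -3.39, and no iNSLC reached the fibroblast.

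CAVIN2, formerly SDPR, had few reads in any cell. All of its 9 reads in iNSLCs (CI 4.12 to 17.1) were in cell 48, at 6.88 normalized counts. No PSC cell had a read, and the fibroblast was at 10.5 normalized counts, from 26 reads. Since 64 of 65 iNSLCs and every PSC cell were at 0, a difference between iNSLCs and PSC cells was not detectable at this depth. The ratio to the fibroblast was -3.38. For all 5 members no iNSLC reached the fibroblast, a pattern that 9.54% of the named genes shared.

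**Figure D2:**
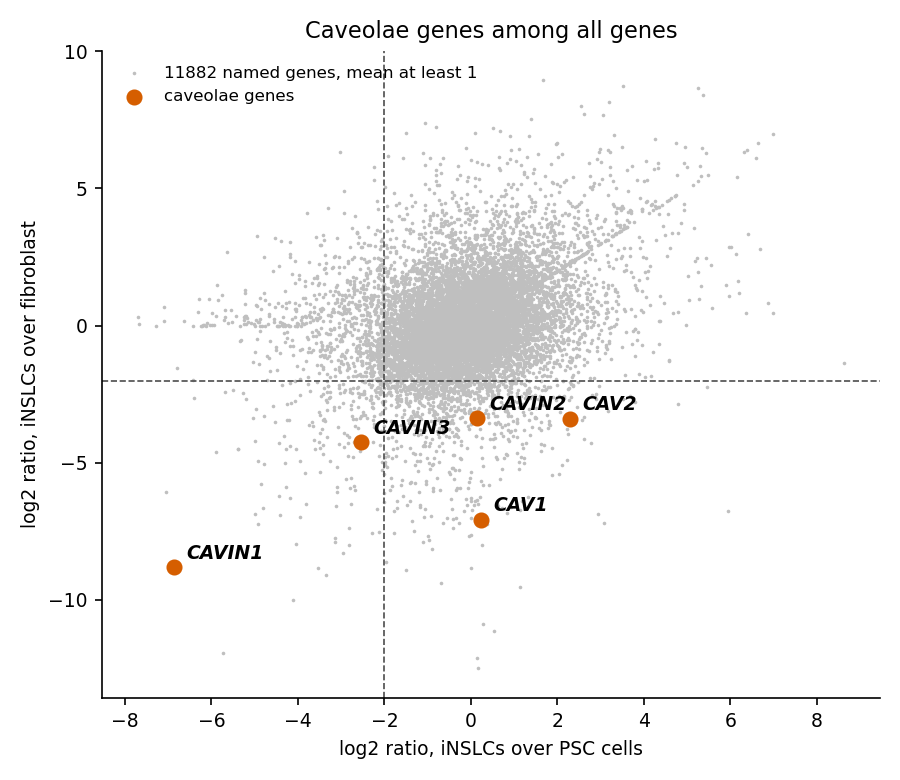
Log2 ratio of iNSLCs over PSC cells (x axis) and over the fibroblast (y axis) for 11882 named genes with a mean of at least 1 (grey) and for the 5 caveolae genes (orange). Dashed lines mark a 4-fold lower mean in iNSLCs. CAVIN1 at -6.87 and -8.80 lies in the corner of genes low against both, CAVIN3 is past both lines, and CAV1, CAV2 and CAVIN2 are past the lower line only.

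Caveolae need a caveolin and CAVIN1 in the same cell, and single cells show which members were read together. Of the 65 iNSLCs, 47 or 72.3% (CI 59.8% to 82.7%) had reads of CAV1 or CAV2. CAV1 and CAVIN1 were found together in 0 of 65 iNSLCs, in the iPSC, in 1 of 4 ESCs and in the fibroblast. For iNSLCs this allows a share of up to 4.62% by the limit of 3 cells of the total. By the exact Clopper-Pearson interval it allows up to 5.52%. With a CAVIN1 read in only 1 iNSLC, the product of the separate shares gives 0.415 cells. The 0 thus restates the near absence of CAVIN1 reads and says nothing further of the pair. The single iNSLC with a CAVIN1 read, cell 35, also had 14 reads of CAV2 and 28 of CAVIN3. Among the ESCs, CAVIN1 and CAVIN3 had reads in 4 of 4, and 3 of the 4 had no caveolin read. The share of ESCs with a caveolin read, 1 of 4, has a CI of 0.631% to 80.6%. That interval includes the 72.3% of iNSLCs. The fibroblast was the only cell with reads of all 5 members.

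An iNSLC had reads of 0 to 3 members. In all, 4 iNSLCs had none, 19 had 1, 27 had 2 and 15 had 3. The commonest combinations were CAV2 with CAVIN3 in 15 cells, CAV1, CAV2 and CAVIN3 in 14 and CAVIN3 alone in 13. CAVIN3 was found together with CAV1 in 20 cells and with CAV2 in 30, where the product of the separate shares gives 20.8 and 30.0. CAV1 and CAV2 were found together in 19 cells, where the product gives 16.2. Detection of CAVIN3 thus came out near the product of the shares, and that of the 2 caveolins somewhat above it.

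**Figure D3:**
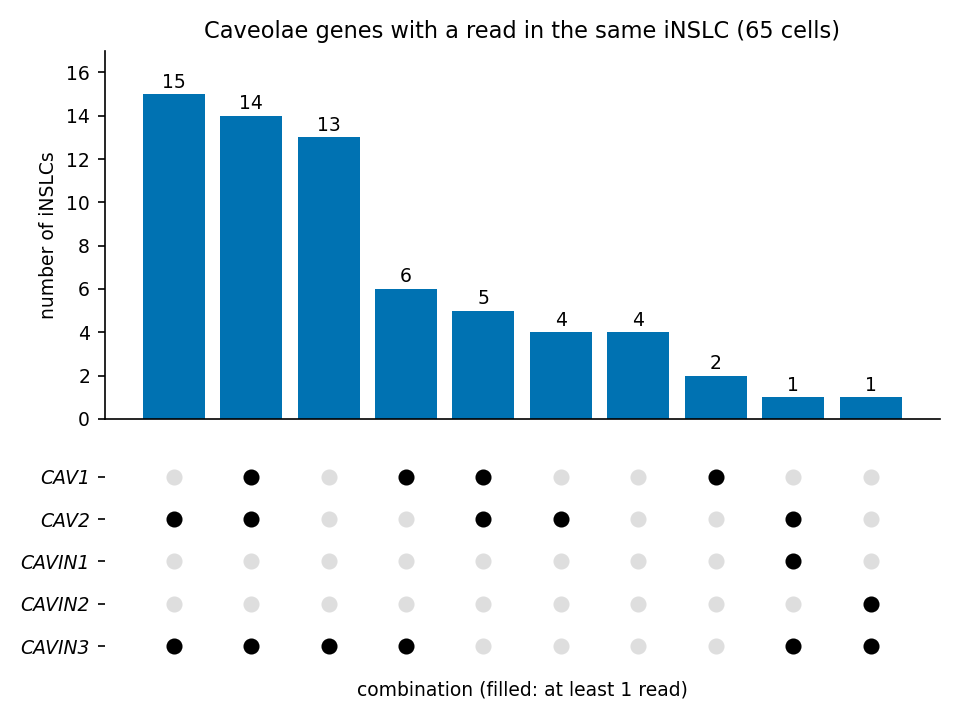
Number of iNSLCs (y axis, 65 cells in all) with each combination of caveolae genes that had at least 1 read; filled dots below a bar name the genes. CAVIN1 and CAVIN2 each enter 1 combination of 1 cell, and most cells combine CAVIN3 with CAV1, CAV2 or both.

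CAV1 and CAV2 lie next to each other in the marmoset annotation (calJac240_pri), with no gene between them, and no member overlaps another annotated gene there. Their levels also went together among iNSLCs. Over the 65 cells the log2 values had a Pearson r of 0.51 and a Spearman rho of 0.44. Among 10698 named genes found in at least 20 iNSLCs, CAV2 had the highest r with CAV1 and CAV1 the highest r with CAV2. The r was 0.52 in the 27 iNSLCs numbered 56 or below and 0.49 in the 38 numbered 57 or above, sets that differ in overall profile. It was 0.46 without the 2 cells farthest from the median of CAV1. Cells 28, 30 and 45 had at least 10 normalized counts of each: 15.2, 16.1 and 11.8 of CAV1 and 18.2, 18.3 and 22.7 of CAV2. These cells share 1 culture and differ in depth, but r with the log10 of reads was 0.06 for CAV1 and 0.02 for CAV2.

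CAVIN3 did not follow the caveolins. Its r was -0.01 with CAV1 and 0.02 with CAV2 over the 65 iNSLCs. Its own highest r was 0.54 with SPPL2B, an intramembrane protease gene, followed by CDK10, LIG1, RPL28 and OGG1 at 0.51 to 0.52. The r of CAVIN3 with the number of detected genes was 0.37, against -0.06 for CAV1 and -0.07 for CAV2. The part of the number of detected genes in the CAVIN3 values was not tested.

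**Figure D4:**
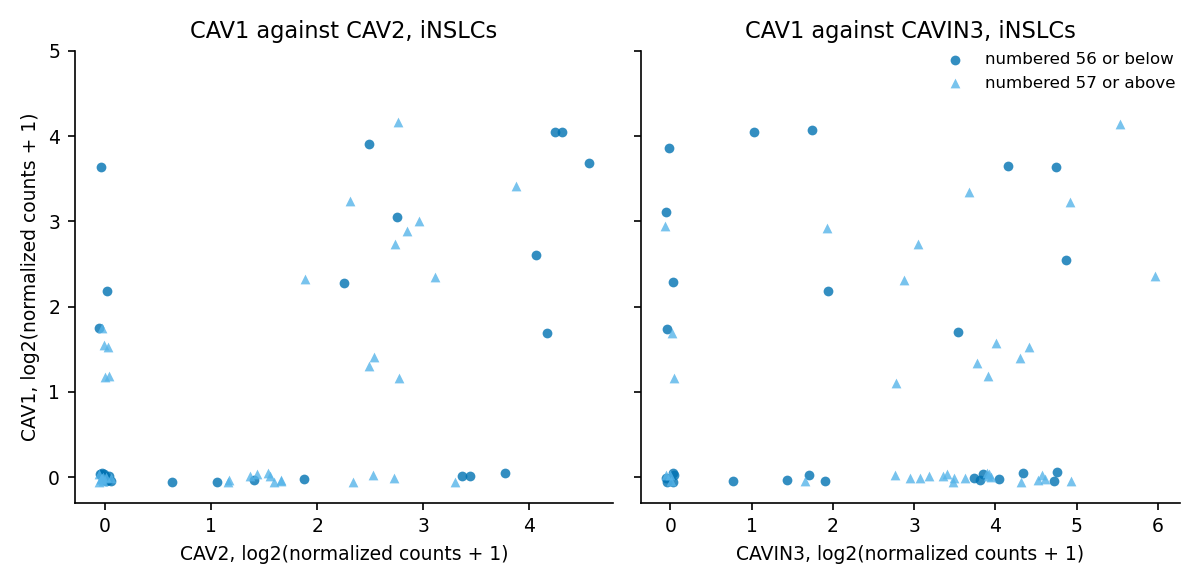
CAV1 against CAV2 (left) and against CAVIN3 (right) in 65 iNSLCs, in log2 of normalized counts plus 1 on both axes, with 1 point per cell, a small random offset to part overlapping points, and the symbol giving the cell number set. CAV1 tends to be higher where CAV2 is higher, with r of 0.51, though cell 49 had CAV1 at 11.9 normalized counts and no CAV2 read. High CAV1 values lie at any CAVIN3 value, with r of -0.01.

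The members were also read separately in the iNSLCs numbered 56 or below and in those numbered 57 or above. The labels name no plate or batch for these numbers, and the boundary was taken from earlier results of these data. CAV1 averaged 1.96 ± 3.57 normalized counts in the 38 cells numbered 57 or above and 3.44 ± 5.39 in the 27 numbered 56 or below (SD), and CAV2 averaged 2.85 ± 3.24 and 5.30 ± 7.28 in the same order. CAV1 was found in 42.1% and 40.7% and CAV2 in 63.2% and 55.6%. CAVIN3 ran the other way, at 13.2 ± 12.4 and 8.07 ± 9.79, and was found in 84.2% and 66.7%. These spreads within a set were larger than the differences between the sets. Detection also rests on depth, and the sets differed in depth. In the 27 cells numbered 56 or below 618 reads of the members gave a mean sum of 17.1 normalized counts. In the 38 cells numbered 57 or above 451 reads gave a mean sum of 18.0. The shares of the 2 sets were not thinned to a common depth. With the 58 iNSLCs of sufficient depth thinned to 130000 reads each (7 left out), the expected shares were 34.4% for CAV1, 48.6% for CAV2, 0.728% for CAVIN1, 1.70% for CAVIN2 and 74.4% for CAVIN3, against 41.4%, 58.6%, 1.72%, 1.72% and 79.3% in the same cells before thinning.

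Other genes were ranked by likeness to the summed level of the 5 members. The members themselves had no common pattern against PSC cells, with ratios from -6.87 (CAVIN1) to 2.28 (CAV2). Against the fibroblast all 5 were at least 4-fold lower in iNSLCs (9.19% of the named genes were). By the Pearson r of log2 values with the log2 of the summed members over all 71 cells, the closest of 11878 named genes included MYOF at 0.65, RASGRF2 at 0.63, ITGA1 at 0.63 and COL1A1 at 0.62. Next came GSN, TINAGL1, STX3, BCL11B and EPAS1, at 0.60 to 0.62. These correlations rest largely on the step between 65 iNSLCs and 6 other cells and describe likeness only. MYOF encodes myoferlin, a membrane repair protein. It was at a mean of 0.0596 normalized counts in iNSLCs (reads in 2 of 65), at 8.55 in the iPSC, 21.6 to 43.7 in ESCs and 156 in the fibroblast. ITGA1, a collagen-binding integrin chain, had no read in any iNSLC and was at 5.34 in the iPSC, 1.62 to 9.16 in ESCs and 59.1 in the fibroblast.

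Genes that help to build or anchor caveolae were also read. Of 10 accessory genes, 0 had a mean at least 4-fold lower in iNSLCs than in PSC cells (8.24% of the named genes did). For a list of 10 genes, 0 is near that share and does not set the list apart from other genes. Against the fibroblast 3 passed that limit (9.19% of the named genes did). The median ratios were -0.27 against PSC cells and -1.50 against the fibroblast. EHD2, the ATPase at the neck of caveolae, averaged 5.04 ± 11.7 normalized counts in iNSLCs (SD, n = 65 cells; reads in 25 cells) and was at 28.9 in the iPSC, 0.405 to 29.2 in ESCs and 511 in the fibroblast. It overlapped between iNSLCs and PSC cells. PACSIN2, which bends the caveolar membrane, averaged 10.8 ± 8.79 in iNSLCs and was at 44.9 in the iPSC, 0 to 64.3 in ESCs and 29.1 in the fibroblast. FLNA, the filamin that ties caveolae to stress fibres, had reads in every iNSLC at a mean of 806 ± 373 and was at 699 in the iPSC, 692 to 1385 in ESCs and 5881 in the fibroblast. The ratios to PSC cells were -1.41, -1.41 and -0.18 for the 3 genes. DNM2, the dynamin that pinches off vesicles, had a ratio of -1.32 to PSC cells, and PACSIN3 one of -1.05. EHD1 ran the other way, with a ratio of 0.77 and reads in 59 of 65 iNSLCs. EHD4 and SRC were little changed, at -0.22 and -0.19. The list also held CAV3, at 1.25, and CAVIN4, at -0.33, both described next. The accessory genes thus did not run low together against PSC cells.

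CAV3 and CAVIN4, the caveolin and cavin of striated muscle, are close relatives of CAV1 and CAVIN1. CAV3 had reads in 26 of 65 iNSLCs, or 40.0% (CI 28.0% to 52.9%), at up to 10.7 normalized counts and a mean of 1.37, and had none in PSC cells or the fibroblast. The mean was at least 2.12-fold higher in iNSLCs than the floor of 3 reads over the PSC cells. CAVIN4 had 30 reads in 11 iNSLCs, 7 reads in 3 ESCs and none in the iPSC or the fibroblast, with a mean of 0.360 normalized counts in iNSLCs and 0.706 in PSC cells. In the iNSLCs numbered 57 or above CAV3 was found in 52.6%, and in those numbered 56 or below in 22.2%.

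Clathrin-coated pits are the other main kind of pit in the plasma membrane. Of 10 clathrin coat genes, 0 were at least 4-fold lower or higher in iNSLCs against PSC cells or the fibroblast. Of the named genes, 8.24% were lower and 5.75% higher against PSC cells, and 9.19% and 11.1% against the fibroblast. For a list of 10 genes, 0 is near these shares. The median ratios were -0.30 and -0.58. The clathrin heavy chain gene CLTC averaged 142 normalized counts in iNSLCs and was at 173 in the iPSC, 96.3 to 276 in ESCs and 194 in the fibroblast. FLOT1 and FLOT2, scaffold proteins of flat membrane rafts, had ratios of -1.17 and 0.64 to PSC cells and of -0.97 and 0.13 to the fibroblast. Cholesterol is the lipid on which caveolae depend. Of 9 genes of its synthesis and uptake with a row, 1 was at least 4-fold higher in iNSLCs than in PSC cells (5.75% of the named genes) and none was 4-fold lower. It was FDFT1, the squalene synthase gene, which had reads in 65 of 65 iNSLCs with a ratio of 2.06. Against the fibroblast 2 of the 9 were at least 4-fold higher (11.1% of the named genes), FDFT1 at 2.82 and HMGCS1, which makes HMG-CoA, at 2.13, and none was 4-fold lower. The median ratios of the 9 genes were 0.65 against PSC cells and 1.56 against the fibroblast.

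YAP1 and WWTR1 (TAZ) are coactivators that respond to stretch, and caveolin and cavin genes are among their known targets. At least 4-fold higher in iNSLCs than in PSC cells was 1 gene of this group (5.75% of the named genes were), WWTR1, with a ratio of 2.07. YAP1 averaged 59.5 normalized counts in iNSLCs and was at 51.3 in the iPSC, 15.3 to 68.0 in ESCs and 51.4 in the fibroblast. WWTR1 averaged 19.5 in iNSLCs and was at 7.48 in the iPSC, 0 to 6.48 in ESCs and 37.2 in the fibroblast. The target genes CCN1, CCN2 and AMOTL2 had ratios of -0.92, -1.76 and -0.29 to PSC cells and -3.48, -3.83 and -3.04 to the fibroblast. Of the 12 genes of this group with a row, 1 was at least 4-fold lower in iNSLCs than in PSC cells (TEAD4, at -3.69). The share of the named genes was 8.24%, so that the counts of 1 lower and 1 higher against PSC cells were near the shares of all genes. Against the fibroblast 4 of the 12 were at least 4-fold lower (9.19% of the named genes were).

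Contractile and fibroblast genes were high in the fibroblast, as the caveolae genes were. Of 11 actin contractile genes, 10 were at least 4-fold lower in iNSLCs than in the fibroblast (9.19% of the named genes were). Against PSC cells 1 was at least 4-fold lower (ACTN4, with 8.24% of the named genes) and 1 at least 4-fold higher (5.75%). The latter was ACTA2, at a ratio of 3.09, with means of 15.2 normalized counts in iNSLCs and 0.909 in PSC cells. The median ratios of this list were -5.24 against the fibroblast and -0.88 against PSC cells. The summed fibroblast markers were 4.61 to 1155 in iNSLCs (median 117), 100.5 in the iPSC, 77.2 to 465 in ESCs and 29058 in the fibroblast. Of the 12 markers, 11 were at least 4-fold lower in iNSLCs than in the fibroblast (9.19% of the named genes were). Against PSC cells 2 of the 12 were at least 4-fold lower in iNSLCs (8.24% of the named genes). At least 4-fold higher were 3 (5.75% of the named genes), COL1A2, FBN1 and LOX. In iNSLCs FBN1 had reads in 60 of 65 cells, THY1 in 52, LOX in 48, COL1A2 in 45, PDGFRB in 27, PDGFRA in 25, COL1A1 in 16, COL3A1 in 7, COL6A3 in 5 and DCN and LUM in 1 each, and POSTN was at 0. DCN and LUM were low in the fibroblast too, at 17.4 and 2.43 normalized counts. Among iNSLCs the r of summed fibroblast markers was 0.23 with CAV1 plus CAV2 and 0.33 with CAVIN3, and their part in these values was not tested. Endothelial cells are rich in caveolae too, and of 5 endothelial markers with a row PECAM1 had reads in 50 of 65 iNSLCs at a mean of 7.09, ESAM in 7 and VWF in 1, while KDR and TEK were at 0 in iNSLCs. The summed endothelial markers were 0 to 26.3 in iNSLCs, 27.8 in the iPSC, 59.9 to 115 in ESCs and 1.21 in the fibroblast.

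**Figure D5:**
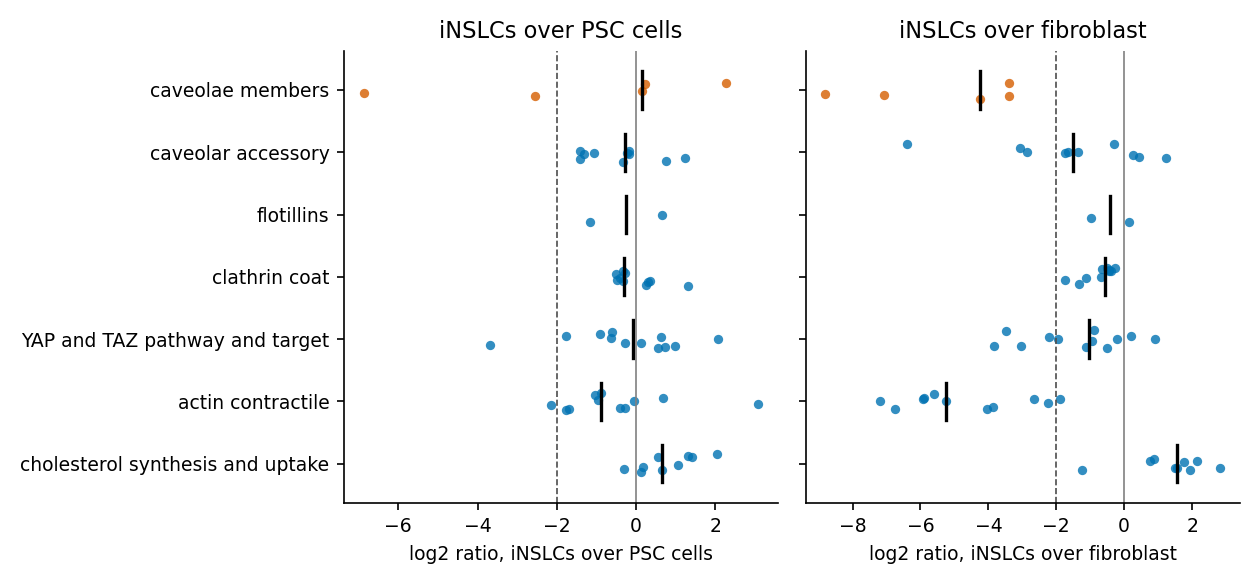
Log2 ratios of iNSLCs over PSC cells (left x axis) and over the fibroblast (right x axis) for the genes of 7 lists (y axis), with 1 point per gene and a bar at the list's median. The dashed line marks a 4-fold lower mean in iNSLCs. Clathrin coat genes lie near 0 in both panels, actin contractile genes lie far below 0 against the fibroblast, and the caveolae members spread from -6.87 to 2.28 against PSC cells.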

How the data were processed

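The deposited signal is the authors' normalized counts, 1 column per cell. Tools listed in the submitters' processing notes are Seurat 3.0.0, featureCounts 1.5.1, STAR 2.6.0c and Trimmomatic. Their roles, the genome build, the annotation and any use of strand were not given in the sources used here. Every non-zero value lay within 0.02 of a whole multiple of the smallest value in its cell, and these multiples were taken as reads. An entry without a gene name, up to 0.449% of the total in any cell, was dropped. Analyses used Python 3.11.15, pandas 2.3.3, numpy 2.4.6, scipy 1.17.1 and matplotlib 3.10.9, and the ratio was tested on simulated data. The simulation held only genes with a mean of at least 10, which CAV1, CAV2 and CAVIN2 did not reach, so it does not cover their ratios. Its changes were smaller than that of CAVIN1, and it held iNSLCs and PSC cells only. So it covers neither the ratio of CAVIN1 nor any ratio to the fibroblast. A gene is called detected at a value above 0. With no read in a group, the floor is 3 reads over that group. Thinning was computed from the hypergeometric distribution. No model was fitted, because each group is 1 culture.

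The members, the 13 lists (102 genes, of which 7 have no row) and the rules were chosen with earlier results of these data known. Named genes are the members, list genes of high mean and the closest genes by correlation, of which 1 is not reported here; TEAD4, ACTN4, FDFT1, EHD2, PACSIN2, CCN1, CCN2, AMOTL2, WWTR1, CAV3, CAVIN4 and the markers and neighbours given singly were chosen regardless of that order. Alternatives were a pseudocount of 10, scaling to equal totals, medians, other filters and detection limits, thinning, subsets of iNSLCs and leaving out each PSC cell.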

Additional observations from a re-analysis of the deposited data

Results flagged for a closer look

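Among the 4 ESCs, CAV1 was at 7.02 normalized counts in cell 12, from 13 reads, and at 0 in the other 3, so that this cell lay far from the rest. The 4 ESCs were examined in this way for CAV1, CAVIN1, CAVIN3 and the summed members, and 1 of these 4 measures had such a cell; chance gives one in about 1 in 20 groups. With 3 values at 0, any cell with reads would stand apart in this way.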

How the results depend on the processing

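When cells were scaled to equal totals, the median ratio of all genes shifted by 0.27 against PSC cells and 0.64 against the fibroblast. Leaving out single PSC cells gave a ratio to PSC cells of -7.10 to -6.58 for CAVIN1, -2.76 to -2.28 for CAVIN3 and 0.01 to 0.99 for CAV1. With a pseudocount of 10 this ratio was -3.67 for CAVIN1 and 0.47 for CAV2, and the ratio to the fibroblast was -5.28 for CAV1, -5.52 for CAVIN1 and -1.02 for CAVIN2. With scaling, the ratio to the fibroblast was -7.86 for CAVIN1 and -2.54 for CAVIN2, and with medians over cells it was -8.91 for CAV1. At least 2 reads of CAV2 were found in 46.2% of iNSLCs and of CAVIN1 in 0%. At least 10 normalized counts were found in 9.23% for CAV1, 10.8% for CAV2, 0% for CAVIN1 and CAVIN2, and 50.8% for CAVIN3. CAVIN1 and CAVIN2 were found in 0% of the iNSLCs numbered 57 or above. Of all named genes, 979 were at least 4-fold lower in iNSLCs than in PSC cells, 1092 than in the fibroblast and 213 than in both. These counts were 325, 413 and 61 with a mean of at least 10, and 298, 530 and 31 with a pseudocount of 10. With scaling the last 2 counts were 513 and 102. The cause of these changes was not tested beyond the construction of each alternative. No paired analysis was possible because the cell numbers are not shared between groups. A single fibroblast and a single iPSC limit every comparison with them.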

Other observations

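The summed smooth muscle and mural markers were 0 to 210 normalized counts in iNSLCs (median 23.7), 23.5 in the iPSC, 0 to 14.99 in ESCs and 3087 in the fibroblast. DES, the intermediate filament gene of muscle, had reads in 41 of 65 iNSLCs at a mean of 12.7 and in no PSC cell or fibroblast, while RGS5, a marker of pericytes, had reads in 1 iNSLC. PECAM1, an adhesion molecule of endothelium and of PSCs, had reads in 50 iNSLCs at a mean of 7.09 and was at 14.96 in the iPSC, 29.2 to 94.5 in ESCs and 0 in the fibroblast. Of the adipocyte markers, PLIN1 had reads in 3 iNSLCs and PLIN4 in 27.

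TES, the gene on the other side of CAV2 in the annotation, encodes a focal adhesion protein. It had reads in 6 of 65 iNSLCs, at a mean of 0.135 normalized counts, and was at 5.34 in the iPSC, 0 to 19.4 in ESCs and 8.09 in the fibroblast.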
